A study of Rattus norvegicus and Bos taurus with 6 samples.

Results

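Perivascular adipose tissue was compared with non-perivascular adipose tissue across rat depots, with each depot standing in as 1 replicate. The perivascular depots were mesenteric perivascular adipose tissue (mesPVAT), a white fat, and thoracic aortic perivascular adipose tissue (taPVAT), a brown fat. The non-perivascular depots were retroperitoneal (RP) fat, a white fat, and subscapular brown adipose tissue (BAT). These are 4 of the 6 libraries of a study of nuclei isolation from adipose tissue, chosen by their labels and not by any measured value, and they hold 11240 nuclei. The other libraries, from cow subcutaneous fat and a second mesPVAT preparation made with a droplet kit (10x), entered no comparison except where stated.

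All 4 depots came from male Dahl SS rats (SS/HsdMcwiCrl) on a normal diet, a strain whose blood pressure rises with dietary salt, and the tissues were snap frozen with no treatment. The nuclei were barcoded by split pooling (Parse Evercode WT v3), and each deposited value is a count of unique molecular identifiers (UMIs), the distinct RNA molecules of a gene seen in a nucleus. There was 1 library per depot, and the labels do not say whether depots came from the same animals. The taPVAT nuclei were pelleted at a lower speed than the nuclei of both rat white fats, which shared a speed. The paper states no speed for BAT. Between the colours, depot and this step cannot be told apart, and in the brown pair its part is not known. With 1 library per depot, any other difference in preparation cannot be told apart from depot either.

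White adipocytes store triglyceride in a single large droplet, and brown adipocytes oxidise it to make heat through the mitochondrial uncoupling protein Ucp1. Perivascular fat lies directly against arteries and releases factors that change vascular tone, and its colour follows its position: the fat around the thoracic aorta of rodents is brown and that around mesenteric arteries is white. A gene tied to the perivascular position itself, rather than to colour, would differ the same way in both colours, which is the question the paired ratios address.

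The libraries differed in depth. The mesPVAT library held 3028 nuclei and 1656726 UMIs, the RP fat library 2805 nuclei and 845316 UMIs, the taPVAT library 2708 nuclei and 5100216 UMIs and the BAT library 2699 nuclei and 6317970 UMIs. Median UMIs per nucleus were 346, 213, 1246 and 1706 in the same order. No barcode was shared between any pair of the 4 libraries. UMIs were summed over all nuclei of a library and are given as CPM, the UMIs of a gene per 1000000 UMIs of its library. In such sums, fewer cells of a type and less RNA per cell cannot be told apart.

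The tissue markers were measured in every library first. Ucp1 had 63.4 CPM in mesPVAT, 89.9 in RP fat, 1782 in taPVAT and 2072 in BAT, so the brown libraries lay far above the white ones. Adipoq, which encodes the hormone adiponectin, had 73.0, 39.0, 143 and 170 CPM in that order. Plin1, the coat protein of the lipid droplet, had 1287, 478, 2435 and 2501 CPM. All 4 libraries thus held transcripts of adipocytes, with the lowest level in RP fat for both adipocyte genes.

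The labels of the 2 white libraries carry a doubt that touches every result of the white pair. The positional genes Nkx2-3 and Gata5 were found in the 10x mesPVAT library and in the library labelled RP fat, and were at or near 0 in that labelled mesPVAT. Nkx2-3, a homeobox factor of gut and splenic mesenchyme, had 0.604 CPM in the library labelled mesPVAT (1 UMI), 18.9 in that labelled RP fat (16 UMIs) and 10.5 in the 10x library (13 UMIs). Gata5, a zinc finger factor of gut and heart, had 0, 14.2 and 4.85 CPM from 0, 12 and 6 UMIs, where a count of 0 allows up to 1.81 CPM (3 counts, counting error only). Hoxa9, a posterior homeobox gene, is not counted with them and had 70.6, 7.098 and 0.808 CPM from 117, 6 and 1 UMIs. A low 10x count alone does not place a gene with either white library. The positional factor Tbx5 had 21.7, 34.3 and 0 CPM from 36, 29 and 0 UMIs in the same order, where 0 in the 10x library allows up to 2.42 CPM. Tbx15, another, had 36.8, 52.1 and 1.62 CPM from 61, 44 and 2 UMIs. The 10x library also differed in kit and nuclei isolation.

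Other genes went with the labels. Lep, which encodes the satiety hormone leptin, had 80.3 CPM in the library labelled mesPVAT, 14.2 in that labelled RP fat and 304 in the 10x library. Upk3b, a mesothelial gene, had 14.5, 2.37 and 13.7 CPM, and Hoxc8 had 13.3, 3.55 and 15.4 CPM. Across 10936 genes, log2(CPM + 1) in the 10x library had a Pearson r of 0.50 with the library labelled mesPVAT and 0.32 with that labelled RP fat. It was 0.72 with taPVAT and 0.70 with BAT, given as a description. The brown libraries were the deepest and that labelled RP fat the shallowest. The r values thus cannot separate depot from depth, and nothing about the labels is read from them. For the white fats, the study's text places the nuclei of highest UMI count, the larger number of nuclei and the higher median of genes per nucleus in RP fat. The deposited files hold all of these under mesPVAT, with a median of 304 genes per nucleus against 197 under RP fat. The labels were kept as deposited, the white depots are named below as their libraries are labelled, and the main counts are also given with the 2 white labels exchanged.

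**Figure D1:**
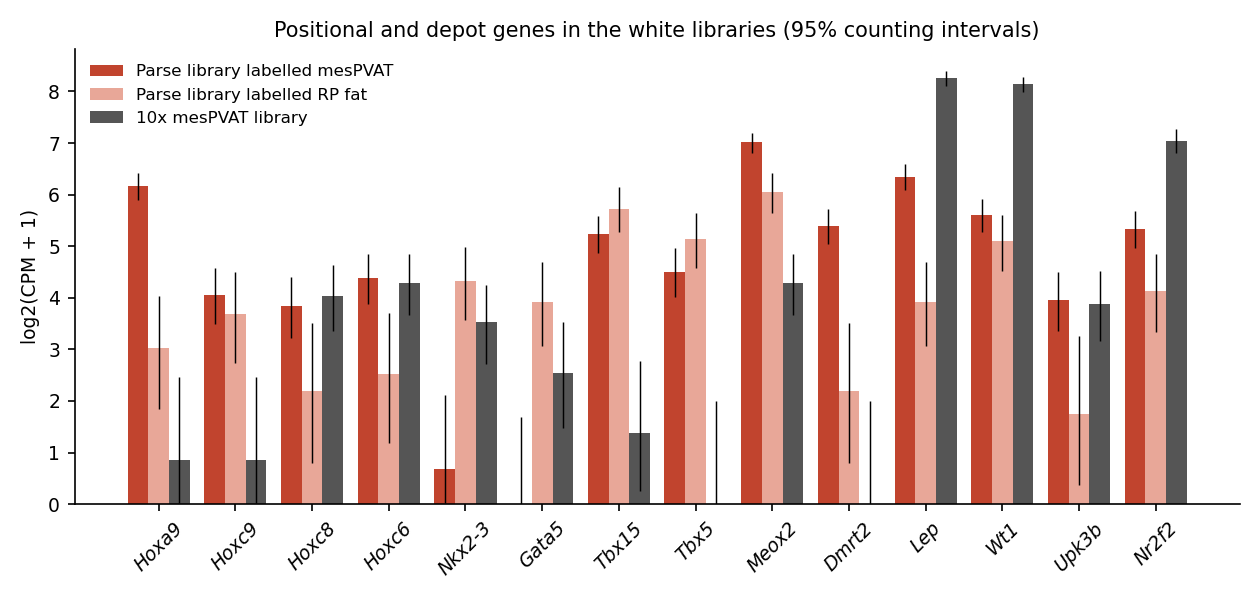
log2(CPM + 1) of positional and depot genes (x axis) in the Parse libraries labelled mesPVAT (dark red) and RP fat (pale red) and in the 10x mesPVAT library (grey). Bars start at 0 and lines are exact 95% counting intervals. Of the 3 libraries, that labelled mesPVAT is the one where Nkx2-3 and Gata5 are at or near 0, while Lep, Upk3b and Hoxc8 are lowest in the library labelled RP fat.

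Few genes moved the same way in both colours. The ratio of the perivascular to the non-perivascular CPM was taken within the white pair (mesPVAT over RP fat) and within the brown pair (taPVAT over BAT), for the 13367 genes with at least 100 UMIs in the 4 libraries together. A gene was called in a pair where the ratio was at least 2-fold and its exact 95% interval left out 1. That interval covers counting error only, since there is 1 library on each side of a pair, so the calls compare these libraries and no p-value exists for a pair. By this rule 14 genes (0.105% of those tested) moved the same way in both pairs, 9 higher (0.0673%) and 5 lower (0.0374%) in the perivascular depot. More genes, 43 (0.322%), moved opposite ways, 41 of them (0.307%) lower in mesPVAT and higher in taPVAT and 2 (0.015%) in the other order. With the white labels exchanged the counts of 14 and 43 trade places.

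The split of the same-way genes depended on how libraries were scaled. With composition factors from edgeR (TMM) in place of total UMIs, 5 genes were higher and 8 lower, and 10 of these 13 were among the 14. The median log2 ratio over all genes tested was -0.07 in the white pair and 0.08 in the brown pair. In the white pair 898 genes (6.72%) were called higher and 538 (4.02%) lower in mesPVAT. In the brown pair 460 genes (3.44%) were called higher and 47 (0.352%) lower in taPVAT. Of the 898 genes higher in mesPVAT, 9 (1.00%) were also higher in taPVAT, and of the 538 lower in mesPVAT, 41 (7.62%) were higher in taPVAT. Both stand beside the 3.44% of all genes tested. Of the 47 genes lower in taPVAT, 5 (10.6%) were also lower in mesPVAT, against 4.02% of all genes. Another 2 of the 47 (4.26%) were higher in mesPVAT, against 6.72%. The ratios of the pairs had the same sign, at any size, in 44.4% of the genes tested, and across 13348 genes their Pearson r was -0.13, as a description over genes that are not independent.

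**Figure D2:**
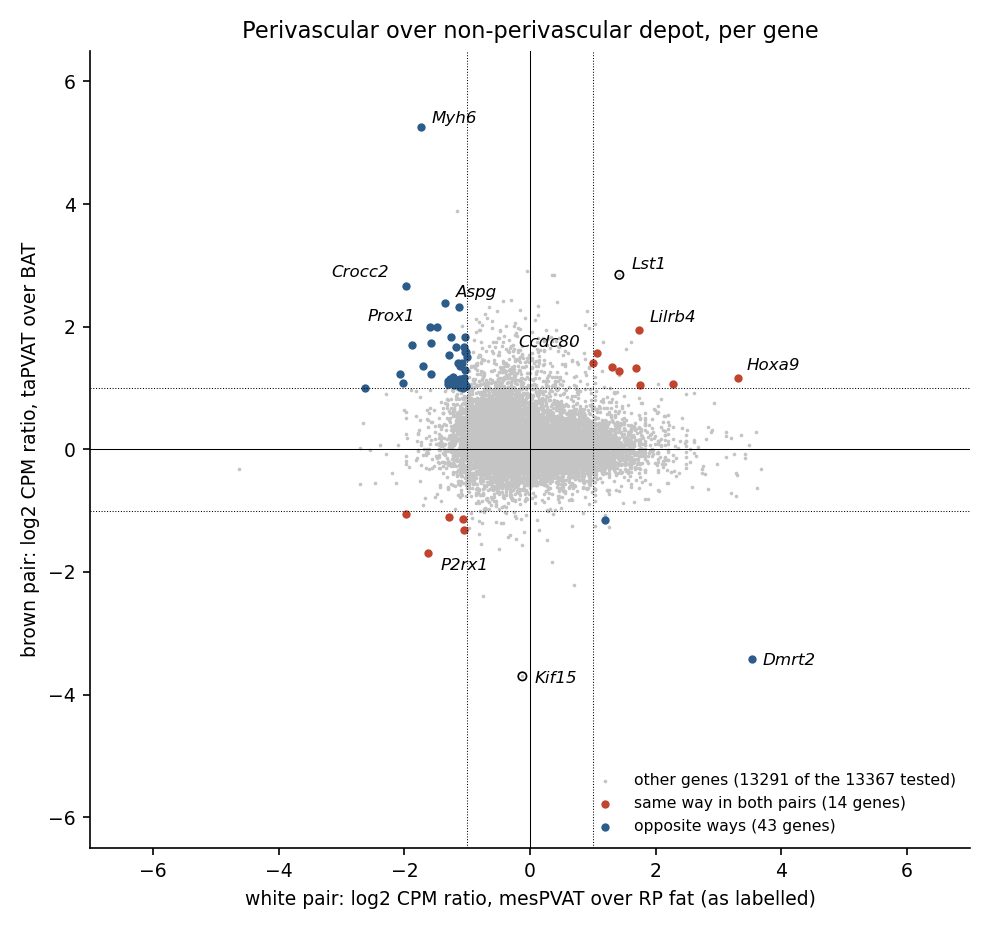
log2 CPM ratio of each gene in the white pair (x axis, mesPVAT over RP fat as labelled) against that in the brown pair (y axis, taPVAT over BAT). Dotted lines mark 2-fold. Red points are the 14 genes called the same way in both pairs, blue points the 43 called opposite ways, and open circles 2 genes of the model fit. The blue points crowd the upper left, lower in mesPVAT and higher in taPVAT, while Dmrt2 stands alone at the lower right.

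Of the 9 genes higher in both perivascular depots, Ccdc80 had the most UMIs. It encodes a secreted protein of the extracellular matrix that adipocytes and their precursors make. It had 706 CPM in mesPVAT (1170 UMIs), 336 in RP fat (284 UMIs), 99.0 in taPVAT (505 UMIs) and 33.4 in BAT (211 UMIs), so each perivascular library lay above the library of its own colour while both white libraries lay above both brown ones. The ratio was 2.10-fold in the white pair (95% counting interval 1.84 to 2.40) and 2.96-fold in the brown pair (2.52 to 3.50). Barcoding wells are technical subdivisions of a library in the first round of split pooling. The CPM of single wells did not overlap in either pair. It was 630 to 803 against 277 to 452 in the white pair and 92.3 to 106 against 28.4 to 39.9 in the brown pair. Wells hold the same UMIs as the library ratios, so wells apart, here and below, add no independent support. The share of all genes tested with wells apart was not counted.

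Ccdc80 was also measured within marker classes of nuclei. The classes hold part of the UMIs behind the library ratios, so calls within a class, here and below, add no independent support. Nuclei were classed by the marker list of which they held the most UMIs, at least 2. For both rat white fats the paper reports no clear inflection point between nuclei and background RNA, so their classes may hold background. The adipocyte class of RP fat had 256 nuclei with a median of 279 UMIs. In nuclei with adipocyte markers Ccdc80 had 1210 CPM in mesPVAT, 567 in RP fat, 58.2 in taPVAT and 25.2 in BAT, and it was called higher in both pairs there as well. In nuclei with markers of adipocyte stem and progenitor cells (ASPCs) it had 612, 584, 654 and 402 CPM and was not called the same way in both pairs. Mesothelial-marker nuclei, of which BAT held 1, had the highest level over the 4 libraries, with 1826 CPM from 115 UMIs.

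Marcks, a substrate of protein kinase C that links the membrane to actin, had 143 CPM in mesPVAT, 58.0 in RP fat, 51.2 in taPVAT and 20.1 in BAT. It was 2.47-fold higher in the white pair (1.81 to 3.43) and 2.55-fold higher in the brown pair (2.05 to 3.17), and its wells did not overlap in either. It was found in several marker classes, with 27.6 CPM in adipocyte-marker nuclei, 63.8 in endothelial-marker nuclei, 148 in ASPC-marker nuclei and 211 in macrophage-marker nuclei over the 4 libraries together.

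Hoxa9 had the largest white ratio of the 14 genes. HOX genes encode the homeobox factors that record position along the body axis, and those of higher paralogue number are expressed more posteriorly. Hoxa9 had 70.6 CPM in mesPVAT (117 UMIs), 7.098 in RP fat (6 UMIs), 16.7 in taPVAT (85 UMIs) and 7.44 in BAT (47 UMIs). The ratio was 9.95-fold in the white pair (4.44 to 27.7) and 2.24-fold in the brown pair (1.55 to 3.27). It stood at 0.808 CPM, 1 UMI, in the 10x mesPVAT library. Its white ratio is exposed to the doubt over the labels, as every white ratio is, and 1 UMI does not place Hoxa9 with either white library. Against the RP fat library, the 10x library gave a log2 ratio of -3.13, and the part of the other kit in this was not tested. In adipocyte-marker nuclei Hoxa9 had 53 UMIs in mesPVAT, 0 in RP fat, 78 in taPVAT and 43 in BAT. These classes held 529765, 88207, 3847012 and 4920728 UMIs in that order, so the counts are not levels. No Hoxa9 UMI was found in macrophage-marker or lymphocyte-marker nuclei of any of the 4 libraries.

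Besides Hoxa9, 3 HOX genes reached the minimum of 100 UMIs, all of low paralogue number. Hoxa3 had 71.8, 35.5, 93.1 and 57.8 CPM in mesPVAT, RP fat, taPVAT and BAT, a ratio of 2.02 in the white pair and 1.61 in the brown pair. Hoxb4 had 41.0, 10.6, 20.2 and 14.4 CPM, with ratios of 3.86 and 1.40. Hoxb3 had 17.5, 16.6, 14.3 and 11.1 CPM and was called in neither pair. Hoxa3 and Hoxb4 were thus called in the white pair and not in the brown pair, and the difference between the pairs was not tested.

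The bases upstream of the annotated starts are shown for the 4 genes that carry these ratios in each direction: Ccdc80, Marcks and Hoxa9, higher in both pairs, and P2rx1, the gene of the largest brown ratio among those lower. Each is the 250 bases before the start in RefSeq for GRCr8, 5′ to 3′ on the strand of the gene, at chr11:69224845-69225094 (minus strand), chr20:42245883-42246132 (minus strand), chr4:82657049-82657298 (minus strand) and chr10:58116857-58117106 (plus strand). Capitals mark any match on either strand to the CCAAT box. They also mark the GC box, spelled GGGCGG, and the TATA box, spelled TATAAA. Ccdc80 and P2rx1 have no match. The Hoxa9 window lies inside the annotated span of that gene, chr4:82653847-82659958, so its matches are not upstream of the gene's outer end.
Ccdc80: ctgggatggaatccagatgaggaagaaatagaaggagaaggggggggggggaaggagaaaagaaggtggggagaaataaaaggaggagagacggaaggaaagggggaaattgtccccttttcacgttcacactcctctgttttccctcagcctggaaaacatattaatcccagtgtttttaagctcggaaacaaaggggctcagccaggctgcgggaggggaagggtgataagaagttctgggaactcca
Marcks: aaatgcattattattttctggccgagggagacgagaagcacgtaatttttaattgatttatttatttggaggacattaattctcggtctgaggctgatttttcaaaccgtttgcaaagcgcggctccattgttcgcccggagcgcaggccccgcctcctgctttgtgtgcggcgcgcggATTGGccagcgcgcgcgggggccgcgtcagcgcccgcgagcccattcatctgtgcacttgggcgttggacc
Hoxa9: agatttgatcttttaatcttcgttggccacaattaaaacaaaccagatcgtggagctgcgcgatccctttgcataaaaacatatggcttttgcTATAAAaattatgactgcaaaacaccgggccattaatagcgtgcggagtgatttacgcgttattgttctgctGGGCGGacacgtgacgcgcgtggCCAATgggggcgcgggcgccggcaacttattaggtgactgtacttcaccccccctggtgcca
P2rx1: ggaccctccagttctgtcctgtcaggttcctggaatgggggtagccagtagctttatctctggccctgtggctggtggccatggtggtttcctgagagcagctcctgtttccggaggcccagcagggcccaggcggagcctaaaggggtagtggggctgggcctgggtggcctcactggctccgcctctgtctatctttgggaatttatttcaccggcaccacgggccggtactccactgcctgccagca
Of the 13 same-way genes with a symbol, 12 had an entry. The CCAAT box was found in 6 of the 12, against 34.0% of all 33469 upstream windows of the same length. The GC box was found in 5 against 30.5% and the TATA box in 1, Hoxa9, against 12.9%. The CArG box bound by serum response factor was in 0 of the 12 and in 1.497% of all windows. These are letter matches and say nothing of what binds.

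Genes known from leukocytes stood among those higher in both pairs, but the leukocyte lists as a whole were not higher in the white pair. The median log2 ratio of the tested macrophage genes was -0.26 in the white and 1.18 in the brown pair. For the lymphocyte list it was -0.41 and 1.00. Themis2, a signalling protein of B cells and macrophages, had 22.9 CPM in mesPVAT, 7.098 in RP fat, 13.1 in taPVAT and 5.22 in BAT, 3.23-fold (1.36 to 9.35) and 2.52-fold (1.63 to 3.94) higher. Lilrb4, an inhibitory receptor of myeloid cells, had 15.7, 4.73, 32.7 and 8.55 CPM, 3.32-fold (1.15 to 13.1) and 3.83-fold (2.80 to 5.31) higher.

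The white ratios rested on 4 UMIs of Lilrb4 and 6 of Themis2 in RP fat. For Lilrb4, 22 of its 26 mesPVAT UMIs came from 1 of 2 wells, and the other well had 5.49 CPM, within the range of the RP fat wells. The 10x mesPVAT library held 1 UMI of Lilrb4 and 12 of Themis2. Over the 4 libraries, Lilrb4 had 366 CPM in lymphocyte-marker nuclei, 141 in macrophage-marker nuclei and 9.48 in adipocyte-marker nuclei, and Themis2 had 88.1, 125 and 5.11. The lymphocyte list includes Ptprc, a gene of all leukocytes, so that class can also hold other leukocytes. The levels of both genes came mostly from the brown libraries. Macrophage-marker nuclei of the white libraries held 0 UMIs of either gene, but these classes were small. They had 13861 UMIs in mesPVAT and 6167 in RP fat, against 78169 in taPVAT and 29557 in BAT, too few to compare the colours. Macrophage-marker nuclei made up 1.02% of mesPVAT, 0.677% of RP fat, 3.10% of taPVAT and 0.926% of BAT, shares that depend on depth. At 200 UMIs per nucleus, 9.29%, 10.45%, 9.16% and 3.89% held at least 1 UMI of a macrophage marker, in the same order. At that depth mesPVAT was thus not above RP fat, while taPVAT stayed above BAT. The part of these shares in the ratios was not tested.

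Plagl1, Naa10 and Bora were also higher in both pairs. Plagl1, an imprinted zinc finger factor, had 76.1, 37.9, 9.22 and 3.48 CPM in mesPVAT, RP fat, taPVAT and BAT, a ratio of 2.01 and of 2.65. Bora, an activator of mitotic kinases, had 15.7, 5.91, 14.9 and 6.17 CPM, a ratio of 2.65 and of 2.41. Naa10, the catalytic subunit of an N-terminal acetyltransferase, had 2 UMIs in RP fat against 19 in mesPVAT, a ratio of 4.85 (1.17 to 42.9), and 11.0 against 5.22 CPM in the brown pair. In the brown pair the wells of Bora and Naa10 overlapped, and without the taPVAT well that held most of their UMIs taPVAT had 9.82 CPM of Bora and 7.91 of Naa10.

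Of the 5 genes lower in both perivascular depots, 3 had their highest level in nuclei with smooth muscle or pericyte markers. The share of all genes tested with that peak was not counted, so nothing is read from this count. P2rx1 encodes the ATP-gated channel through which sympathetic nerves contract arterial muscle. It had 4.23 CPM in mesPVAT (7 UMIs), 13.01 in RP fat (11 UMIs), 4.71 in taPVAT (24 UMIs) and 15.2 in BAT (96 UMIs), so the pairs had almost the same levels. It was 3.08-fold lower in the white pair (1.09 to 9.37) and 3.23-fold lower in the brown pair (2.05 to 5.28), with wells apart in both. Ppp1r14a, an inhibitor of myosin phosphatase, had 10.9, 22.5, 6.47 and 16.1 CPM, 2.07-fold and 2.50-fold lower, and its wells overlapped in the white pair.

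Grip2, a scaffold protein of glutamate receptors, had 33.2, 69.8, 8.43 and 18.5 CPM in mesPVAT, RP fat, taPVAT and BAT, 2.10-fold and 2.20-fold lower. In BAT 1 nucleus held 19 of its 117 UMIs, and without the top 2 nuclei of each library BAT had 13.7 CPM and taPVAT 7.47. Over the 4 libraries P2rx1 and Grip2 were highest in nuclei with vascular smooth muscle markers, at 202 and 250 CPM against 3.52 and 6.93 in adipocyte-marker nuclei. Ppp1r14a had 102 CPM in smooth muscle, 197 in pericyte and 4.90 in adipocyte-marker nuclei. BAT gave 69 of the 81 smooth muscle UMIs of P2rx1 and 78 of the 100 of Grip2. The smooth muscle class held 192085 UMIs in BAT, against 78911 in mesPVAT, 49716 in RP fat and 79296 in taPVAT. The levels over the 4 libraries thus lean on BAT. The relation to smooth muscle was seen after the values and is a description.

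Slc22a4, a carrier of the antioxidant ergothioneine, was the one of the 5 with most UMIs in adipocyte-marker nuclei. It had 14.5, 35.5, 10.2 and 21.8 CPM in mesPVAT, RP fat, taPVAT and BAT, 2.45-fold (1.38 to 4.38) and 2.14-fold (1.55 to 3.01) lower. A gene with no symbol, ENSRNOG00000077505, had 3.62, 14.2, 7.06 and 14.7 CPM, 3.92-fold and 2.09-fold lower.

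**Figure D3:**
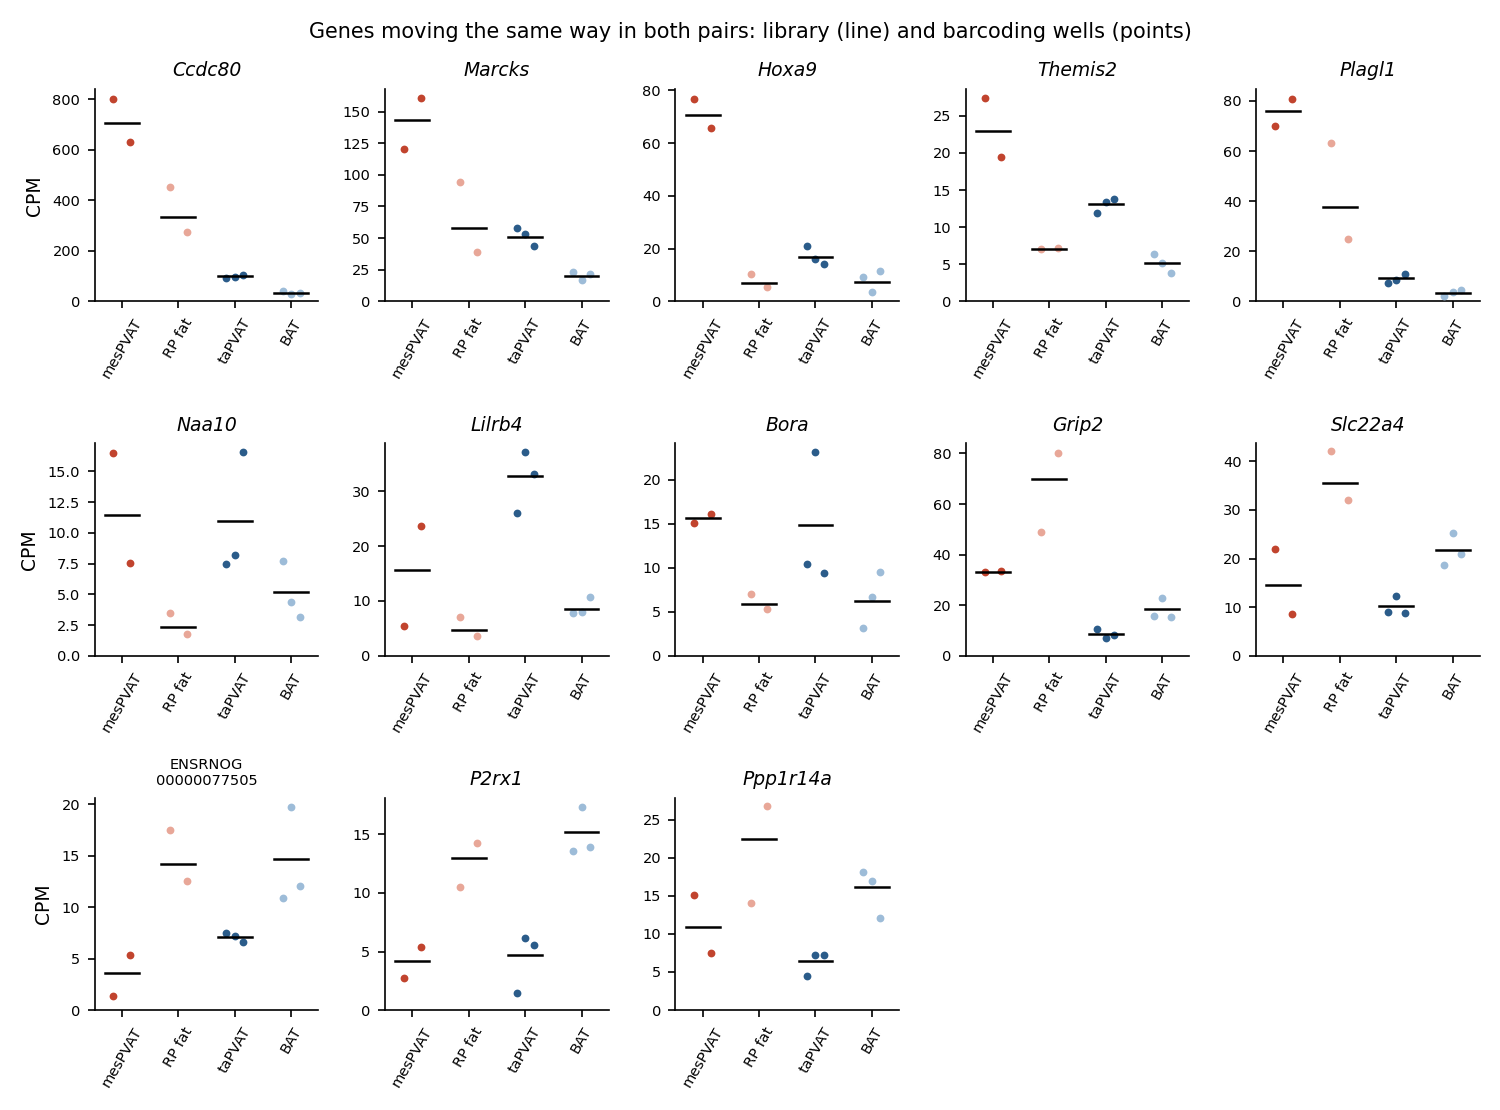
CPM (y axis, from 0) of 13 of the 14 genes called the same way, by depot (x axis). Black lines are the libraries and points their barcoding wells, 2 in each white and 3 in each brown library. The wells of the pairs are apart in most panels, and they hold the same UMIs by which these genes were called. They overlap for Lilrb4 and Ppp1r14a in the white pair and for Naa10 and Bora in the brown pair.

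The 2-fold limit fell among close values. Just inside it stood Plagl1 with a smaller ratio of 2.01-fold and Ppp1r14a with 2.07-fold. Just outside stood Klf2, a flow-responsive endothelial factor, with a smaller ratio of 1.9994-fold, and 2 genes with no symbol, ENSRNOG00000081444 and ENSRNOG00000075381, with 1.96-fold each. In either sequencing sublibrary alone 10 and 15 genes passed, of which 2 and 3 were among the 14.

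The model fit across all genes had colour as a term and called 2 genes. Its error was the spread of the perivascular difference between colours, pooled over all genes. The edgeR quasi-likelihood test at an adjusted p under 0.05 called 1 gene higher (0.00748% of those tested) and 1 lower (0.00748%), while DESeq2 called 0. At an unadjusted p under 0.05 stood 259 of 13367 genes with edgeR and 69 with DESeq2. Both are below the share of 0.05 that such a limit passes where nothing differs, so nothing is read from them. The fit had 1 residual degree of freedom and set the error of each gene from the spread pooled over all genes. A gene's own disagreement between the colours did not widen its error.

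Lst1, a small membrane protein of leukocytes encoded in the major histocompatibility complex, was the gene called higher. It had 12.7 CPM in mesPVAT (21 UMIs), 4.73 in RP fat (4 UMIs), 17.1 in taPVAT (87 UMIs) and 2.37 in BAT (15 UMIs). Both perivascular libraries lay above both others, with wells apart in each pair, and the log2 difference was 2.35 (SE 0.51, edgeR adjusted p = 0.0311). It was not among the 14 genes because its white ratio of 2.68 had a counting interval of 0.904 to 10.7. Lst1 had 142 CPM in lymphocyte-marker, 86.1 in macrophage-marker and 4.58 in adipocyte-marker nuclei over the 4 libraries. The lymphocyte class can also hold other leukocytes.

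Kif15, a kinesin of the mitotic spindle, was the gene called lower, with a log2 difference of -2.21 (edgeR adjusted p = 0.00594), and the call came from 1 well. It had 32.6 CPM in mesPVAT, 35.5 in RP fat, 15.7 in taPVAT and 204 in BAT. The log2 ratio was -0.12 in the white pair and -3.70 in the brown pair, so the colours disagreed. In BAT 1215 of its 1291 UMIs lay in 1 of the 3 wells, with UMIs in 623 nuclei of the library, and the other BAT wells together had 18.5 CPM. Without that well the log2 difference of Kif15 was -0.27 (edgeR adjusted p = 1.00), and neither gene was called: Lst1 had a log2 difference of 2.17 and an adjusted p of 0.22.

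**Figure D4:**
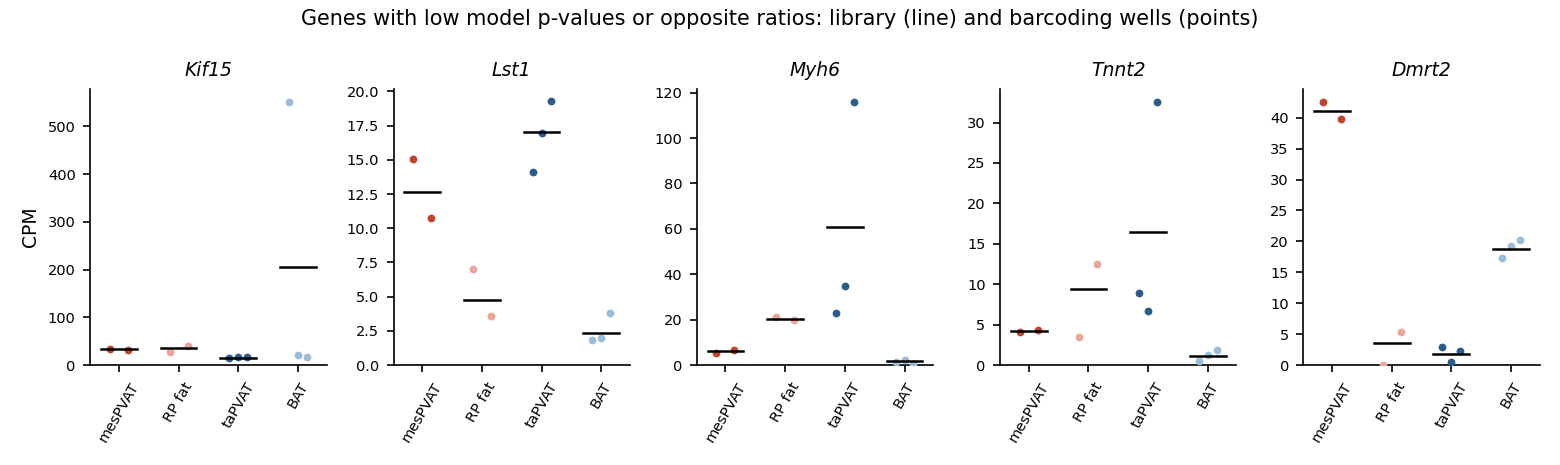
CPM (y axis, from 0) of Kif15, Lst1, Myh6, Tnnt2 and Dmrt2 by depot (x axis), with black lines for libraries and points for barcoding wells. The BAT level of Kif15 comes from 1 well of 551 CPM, the taPVAT levels of Myh6 and Tnnt2 are highest in 1 well, and the wells of Dmrt2 are apart in both pairs and in opposite order.

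Next by p among genes higher were Hoxa9 (log2 difference 1.88, edgeR adjusted p = 0.11) and Myh6 (2.28, adjusted p = 0.193), and neither passed. Myh6, the heart myosin heavy chain, had 6.04 CPM in mesPVAT, 20.1 in RP fat, 60.6 in taPVAT and 1.58 in BAT. Its 309 taPVAT UMIs came from 74 nuclei, 68 of them from 1 nucleus and 210 from 1 of 3 wells, and without that well taPVAT had 30.1 CPM. Tnnt2, the cardiac troponin T, had 84 UMIs in taPVAT and 7 in BAT, 23 of the 84 in 1 nucleus. Myh6 and Tnnt2 thus stood above BAT in taPVAT. Summed, the 8 genes of the cardiac muscle list had 206 CPM in mesPVAT, 367 in RP fat, 156 in taPVAT and 39.4 in BAT, so the sum was not highest in taPVAT. The part of adjacent tissue in these levels was not tested. Among genes lower, Tbx15, a factor of brown and dermal mesenchyme, had 36.8, 52.1, 19.0 and 58.6 CPM, called lower in the brown pair only, and its model p did not pass (adjusted p = 1.00).

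With the white labels exchanged, 43 genes moved the same way and the edgeR test called 24 genes higher (0.18%) and 5 lower (0.0374%). The smallest edgeR adjusted p, 2.5e-14, was that of Myh6, which had 210 of its 309 taPVAT UMIs in 1 well. Kif15 and Tnnt2, also concentrated in 1 well, passed too, each at an edgeR adjusted p of 3.4e-05. The 43 are the genes that moved opposite ways as labelled. Prox1, the master factor of lymphatic endothelium, had 32.6 CPM in mesPVAT, 98.2 in RP fat, 22.7 in taPVAT and 5.70 in BAT, 3.01-fold lower in the white pair and 3.99-fold higher in the brown pair. Crocc2, a component of the ciliary rootlet, had 26.6, 104, 24.1 and 3.80 CPM, and 116 of its UMIs lay in ASPC-marker nuclei, 0 of them in BAT. Tgfa, a ligand of the epidermal growth factor receptor, had 36.2, 108, 34.9 and 14.9 CPM.

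Lymphocyte genes were also in this group. Skap1, an adaptor of T cell adhesion, had 96.0, 202, 41.6 and 20.7 CPM in mesPVAT, RP fat, taPVAT and BAT, and Bcl11b, a T cell factor named after its values were seen, had 27.2, 55.6, 15.3 and 5.06. In the other order stood Dmrt2, a factor of the dermomyotome, with 41.0 CPM in mesPVAT, 3.55 in RP fat, 1.76 in taPVAT and 18.8 in BAT. It was 11.6-fold higher (3.79 to 57.5) in the white pair from 3 RP fat UMIs and 10.7-fold lower (5.44 to 23.9) in the brown pair, and 114 of the 119 BAT UMIs lay in adipocyte-marker nuclei. The 10x mesPVAT library held 0 UMIs of Dmrt2 among 1237543, which allows up to 2.42 CPM.

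The gene lists describe what each pair differed in. Adipocyte genes were called in the white pair and not in the brown pair: 7 of the 17 tested were called higher in mesPVAT, against 6.72% of all genes tested, and 0 in taPVAT, with median log2 ratios of 0.95 and -0.12. Plin1 had 2.69-fold and Acsl1, which activates fatty acids, 2.52-fold more in mesPVAT, while Lpl, the lipase that frees fatty acids from lipoproteins, and Pparg, the adipocyte master regulator, had ratios of 1.58 and 1.15. Of 18 thermogenic genes 1 was called, Adrb3, the adrenergic receptor of fat, with 2.07-fold in the white pair, a share near that of all genes. The medians were -0.17 and -0.10, and Ppargc1b and Esrrg, regulators of oxidative metabolism, had brown ratios of 0.772 and 0.817.

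The shares of nuclei with a marker rest on these same lists and UMIs, so they are not independent of the calls. At 200 UMIs per nucleus, the share of nuclei with at least 1 UMI of an adipocyte marker was 45.3% in mesPVAT, 30.9% in RP fat, 73.0% in taPVAT and 79.3% in BAT (58.9%, 38.9%, 92.4% and 96.7% at full depth). This left out 476 mesPVAT and 1302 RP fat nuclei of lower count. Markers of pancreatic acinar cells, which these tissues should lack, reached 0.784%, 0.732%, 0.185% and 0.0741% at the same depth. Nuclei with fewer than 2 UMIs of any class, or a tie, made up 64.5% in RP fat and 36.3% in mesPVAT, against 4.80% in taPVAT and 2.07% in BAT. The part of these shares in the ratios was not tested.

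Stromal, macrophage and complement genes were called mainly in the brown pair. Of 15 ASPC genes 10 were called higher in taPVAT than in BAT, against 3.44% of all genes tested. None was called in the white pair, against 6.72% of all genes called higher and 4.02% lower in mesPVAT. The median log2 ratios were 1.27 in the brown and -0.06 in the white pair. Col3a1, a fibrillar collagen, had 425 CPM in taPVAT and 176 in BAT against 631 and 587 in mesPVAT and RP fat. Fbn1, the microfibril protein, had a ratio of 3.26 in the brown and 1.21 in the white pair, and Lama2 and Abca8a, 2 others of the most counted members, were called in neither pair. ASPC-marker nuclei made up 9.05% of taPVAT and 3.63% of BAT, and 12.2% and 9.73% of mesPVAT and RP fat, shares that depend on depth. At 200 UMIs per nucleus, 23.1%, 13.6%, 33.8% and 35.7% held at least 1 UMI of an ASPC marker, in the same order.

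Of 8 macrophage genes 6 were called higher in taPVAT, against 3.44% of all genes tested. The median log2 ratios were 1.18 in the brown and -0.26 in the white pair. Mrc1, the mannose receptor, had a ratio of 3.03 in the brown and 1.46 in the white pair, and F13a1, a transglutaminase of resident macrophages, had 2.98 and 0.667. Of 11 complement and acute phase genes 8 were called higher in taPVAT and 0 in mesPVAT, against 3.44% and 6.72% of all genes tested. C4b, a complement component cut during activation, had 783 CPM in taPVAT and 363 in BAT, and 353 and 246 in the white libraries. C7 and C4b were among those called in the brown pair, while Cfd, the adipocyte protease adipsin, had ratios of 1.38 and 1.09.

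Members of the mesothelial, lymphatic and lymphocyte lists were also called higher in taPVAT. Of 5 mesothelial genes 4 were called higher in taPVAT, against 3.44% of all genes tested, and 0 in mesPVAT, with medians of 1.36 and 0.53. Gpm6a, a membrane glycoprotein of mesothelium and neurons, had 290 CPM in mesPVAT, 157 in RP fat, 152 in taPVAT and 63.6 in BAT, a white ratio of 1.84 that fell short of the limit and a brown ratio of 2.39. Wt1, the Wilms tumour factor of visceral mesothelium, had 47.7, 33.1, 12.4 and 4.27 CPM, with ratios of 1.44 and 2.89.

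Of 6 lymphatic endothelial genes Pdpn, Prox1 and Sema3d were called higher in taPVAT, against 3.44% of all genes tested. Prox1 was called lower in mesPVAT, against 4.02% of all genes. Of 9 genes of the lymphocyte list 5 were called higher in taPVAT and 2 lower in mesPVAT, against 3.44% and 4.02% of all genes. Their medians were 1.00 and -0.41. The list is not of lymphocytes alone, since it includes Ptprc. Ptprc, the CD45 phosphatase of all leukocytes, had 129, 94.6, 151 and 49.9 CPM, a ratio of 1.36 in the white and 3.03 in the brown pair. Of 12 mechanosensor genes 2 were called higher in taPVAT, against 3.44% of all genes tested, and nothing is read from a count this small. They were the stretch channel Piezo2 (3.10-fold, and 0.768 in the white pair) and the osmosensitive channel Trpv4 (2.67-fold, and 0.583 in the white pair).

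No member of the smooth muscle or endothelial lists was called the same way in both pairs. Of 12 vascular smooth muscle genes 3 (Tagln, Des and Actg2) were called lower in mesPVAT and 1 (Myh11) lower in taPVAT, against 4.02% and 0.352% of all genes tested, with median log2 ratios of -0.31 and -0.44. Myh11, the smooth muscle myosin heavy chain, had 556, 431, 238 and 493 CPM in mesPVAT, RP fat, taPVAT and BAT, so its white ratio of 1.29 pointed the other way. Mylk, the kinase that activates it, had ratios of 0.828 and 0.837. Of 16 pan-endothelial genes 0 were called in either pair, and their medians were 0.54 and -0.26. Capillary endothelial genes had 3 of 6 called higher in mesPVAT, against 6.72% of all genes, and 0 called in the brown pair.

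Of the signalling genes of vascular tone 5 were called in the white pair and 1, P2rx1, in the brown pair, beside 4.02% of all genes called lower and 6.72% called higher in mesPVAT, and nothing is read from counts this small. Of 10 vasoactive receptors and ligands P2rx1 was called, with list medians of -0.27 and -0.14. Adra1a, an alpha-1 adrenergic receptor, had 112, 137, 1182 and 1273 CPM, with the gap between colours and not within them. Of 10 renin-angiotensin genes, Mas1 and Agtr1b were called lower in mesPVAT and 0 in the brown pair. Agtr1a, the main angiotensin II receptor of rat vessels, had 57.9, 59.1, 33.3 and 26.6 CPM. Of 14 nitric oxide and cGMP genes, Npr3, the natriuretic peptide clearance receptor, was called higher in mesPVAT (4.06-fold, and 1.502-fold in the brown pair) and Nos1, the neuronal nitric oxide synthase, lower (0.374, and 1.70 in the brown pair).

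Secreted and matrix genes were called in each pair. Col5a3, a minor fibrillar collagen chain, had 5469 CPM in mesPVAT and 574 in RP fat, 9.53-fold higher, and 256 and 271 in taPVAT and BAT. Of 17 fibrillar and elastic matrix genes 3 were called higher in mesPVAT and 6 in taPVAT, against 6.72% and 3.44% of all genes tested. None of these was called higher in both, and Fbln1, a fibulin of elastic fibres, was lower in mesPVAT (20.5 against 44.95 CPM) and higher in taPVAT (25.3 against 5.06 CPM). Of 9 adipokine genes 3 were called higher in mesPVAT, against 6.72% of all genes tested, and 0 in taPVAT. The 3 were Vegfa (2.07-fold), Retn (3.15-fold) and Lep (5.66-fold). Of 8 immediate early genes 4 (Nr4a1, Egr1, Fos and Junb) were called lower in mesPVAT than in RP fat, against 4.02% of all genes. The list medians were -1.02 and 0.15. These genes respond within minutes to handling and stress, and the part of tissue collection in them was not tested.

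**Figure D5:**
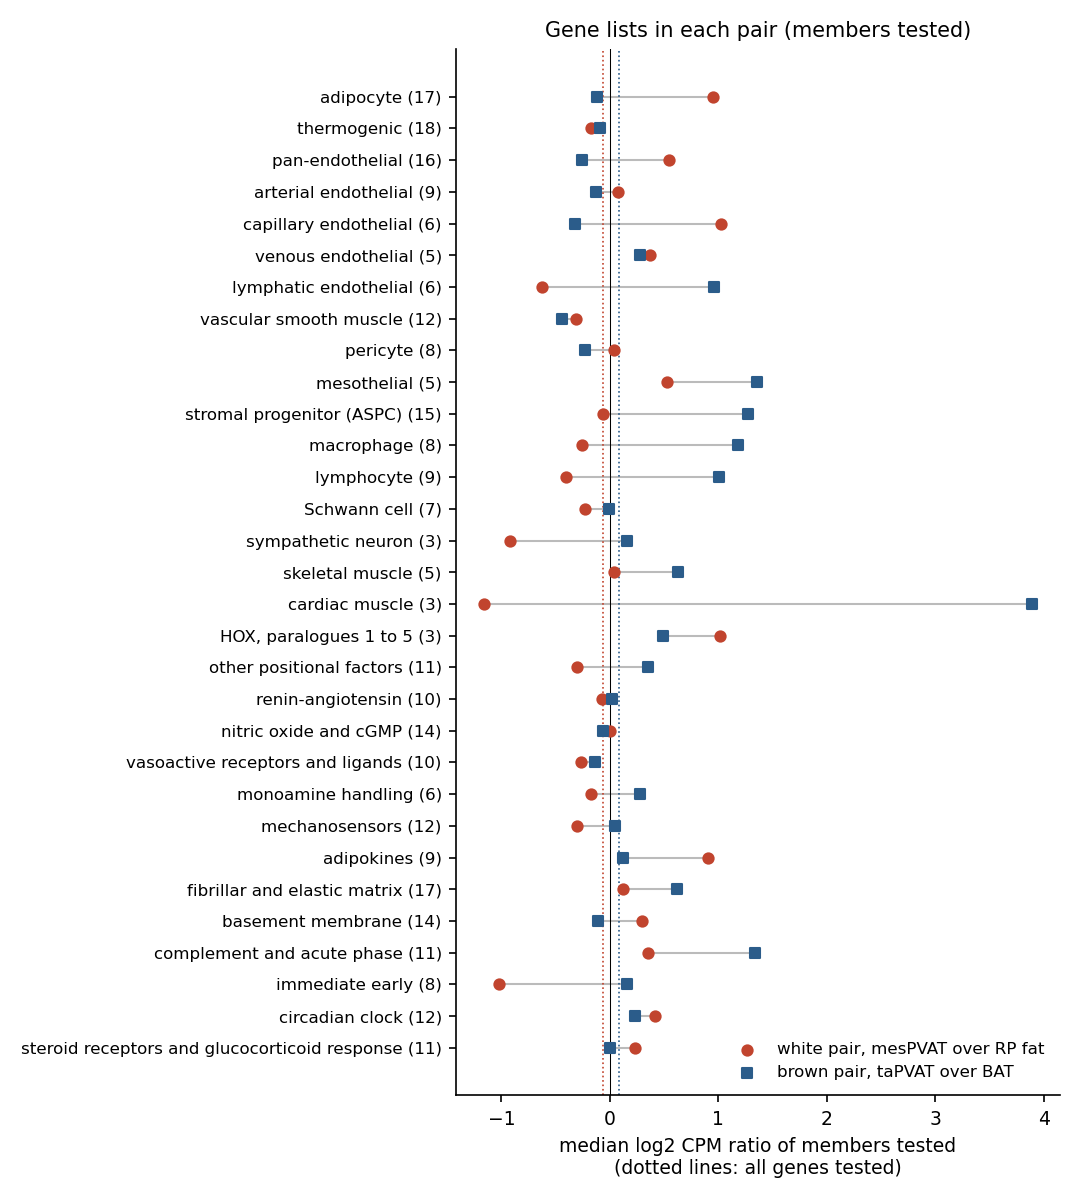
Median log2 CPM ratio (x axis) of the tested members of each gene list (y axis, number tested in brackets) in the white pair (red circles) and the brown pair (blue squares). Dotted lines are the medians over all genes tested. The red and blue points lie far apart for adipocyte, ASPC, macrophage, lymphocyte and lymphatic genes and close together for the thermogenic, nitric oxide and renin-angiotensin lists.

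The comparison was repeated in nuclei of 1 marker class, where fewer genes reached the minimum. In adipocyte-marker nuclei 5 of 9284 genes (0.0539%) were called the same way: 4 genes were called higher in both pairs, Ccdc80, Nav3 and Hoxa9 among them, and 1 lower (Lmx1b), and Nav3 and Lmx1b are named after their values were seen. Nav3, a guidance-related microtubule protein, had 579 UMIs in mesPVAT and 36 in RP fat, and 1096 in taPVAT and 466 in BAT, in classes of unequal size. In endothelial-marker nuclei 2 of 3808 genes (0.0525%) were called higher in both, Stac and ENSRNOG00000072831. In ASPC-marker nuclei 4 of 1473 genes (0.272%) were called higher in both, Antxr1, Htt, Dkk2 and ENSRNOG00000072831. The order of the genes called opposite ways was not that over all nuclei there: 2 were lower in mesPVAT and higher in taPVAT and 11 the other way, collagens Col4a1, Col4a2, Col5a3 and Col15a1 among them, named after their values were seen. Among these classes, 2 of the 14 genes called over all nuclei were also called, both in adipocyte-marker nuclei and from part of the same UMIs.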

How the data were processed

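Single-nucleus RNA of 4 rat depots was analysed, 1 library each. The authors barcoded nuclei with Parse Evercode WT v3, ran FastQC and split-pipe against GRCr8, and deposited UMI counts per gene and nucleus; the counts used here are these deposited whole numbers, not normalized. The 10x library of mesPVAT served as an alternative only. No column of per-sample values was left unmapped, no doublet caller was run, and all deposited nuclei were used.

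UMIs were summed per library (Python 3.11.15, pandas 2.3.3, numpy 2.4.6). CPM ratios carry exact conditional binomial intervals (95%, scipy 1.17.1). edgeR 4.0.16 (R 4.3.3, limma 3.58.1; TMM, colour as block, quasi-likelihood test, Benjamini-Hochberg over 13367 genes) and DESeq2 1.42.0 were fitted to the 4 sums. Depots serve as replicates, and the edgeR p-values rest on the spread between these samples pooled over all genes, not on that of each gene. Both procedures were tested on simulated data. For edgeR the changes put in were the same in both colours, unlike most ratios here, so that test does not show how well these calls hold. Figures used matplotlib 3.10.9. Precision is limited by depth, 845316 to 6317970 UMIs per library, and intervals cover counting error only.

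Members and gene lists were chosen with earlier results of these data known. Named genes were those called the same way in both pairs (up to 15 in each direction), up to 5 in each direction with the lowest edgeR p, up to 5 called opposite ways in each order, the 4 members of a described list with the most UMIs and its members called the same way, and 3 tissue markers. Some genes that meet these rules are not reported here. Other names are said to be chosen later or complete a count of 5 or fewer. The marker-class counts, the exchanged-label edgeR fit, the counts of opposite genes, and the fits without 2 nuclei or 1 well were added after seeing the data. The depot colour is the replicate block and comes from the titles; with 2 pairs its pairing could not be checked further.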

Additional observations from a re-analysis of the deposited data

Results flagged for a closer look

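Genes whose ratios pointed opposite ways in the 2 colours are given with the log2 ratio of the brown pair minus that of the white pair. Each difference rests on 1 library per depot and was not tested, and by construction each is smaller in size with the white labels exchanged. It was 4.64 for Crocc2, 3.59 for Prox1, 2.80 for Tgfa, 3.58 for ENSRNOG00000077021 and 3.10 for ENSRNOG00000066732, all lower in mesPVAT and higher in taPVAT. The wells of ENSRNOG00000066732 overlapped in both pairs, and those of the others did not in either pair.

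In the other order, the difference was -6.95 for Dmrt2 and -2.35 for ENSRNOG00000079003. Adipocyte-marker nuclei hold part of the same UMIs and add no independent support. In them Dmrt2 was also called higher in mesPVAT and lower in taPVAT, with 52 UMIs in mesPVAT, 0 in RP fat, 6 in taPVAT and 114 in BAT. These classes held 529765, 88207, 3847012 and 4920728 UMIs in that order, so the counts are not levels.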

How the results depend on the processing

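The count of 14 same-way genes stayed between 10 and 20 under TMM scaling, median scaling, nucleus limits, either sublibrary, removal of dominant genes, of the 2 deepest mesPVAT nuclei or of the BAT well of most Kif15 UMIs, but the genes were not all the same: 10 of the 14 were called again under TMM, 7 in nuclei of at least 500 UMIs, 2 and 3 in the sublibraries and 12 without the well. It was 6 with libraries thinned to 845316 UMIs, 108 with the 10x library as mesPVAT, 107 at 1.5-fold, 2 at 3-fold, 28 at 30 UMIs, 2 at 300 UMIs, 28 with no minimum, 25 with no interval, 43 with white labels exchanged, and 5, 2 and 4 in adipocyte-, endothelial- and ASPC-marker nuclei. Opposite genes, 43, became 24 with medians set to 0, 25 in sublibrary 1, 14 thinned, 146 with 10x, 291 at 1.5-fold, 5 at 3-fold, 107 at 30 UMIs, 9 at 300 UMIs, 118 with no minimum, and 11, 8 and 13 in the marker classes, where in ASPC-marker nuclei the order turned, with 2 lower and 11 higher in mesPVAT against 41 and 2 over all nuclei. The thinned, sublibrary and class counts had fewer UMIs and genes by construction, and for the rest the cause was not tested. With the 10x library the white log2 ratios of Hoxa9 (-3.13), Lilrb4 (-2.55), Prox1 (1.09) and Tgfa (1.01) reversed, while over all alternatives 603 other values (ratios of single genes, counts in 1 direction and marker shares) stayed within their counting interval, or within 1.5 times for counts, and 207 did not. The 2 edgeR calls became 0 with DESeq2, with no replicate block for colour (0, 4 genes at an unadjusted p under 0.05), within nucleus limits, with 10x and without the Kif15 well, 10 with no filter, 4 in nuclei of at least 500 UMIs and 29 with labels exchanged. Leaving out any 1 library, which empties its pair, gave 0 to 0 calls in an edgeR fit where the lone sample is assumed to vary like the others. Each depot is 1 library, RP fat is the shallowest, and white ratios of genes with under 10 RP fat UMIs are loosely set.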
